A study of Mus musculus with 6 samples.

Results

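The genes described here are 9 genes of antigen presentation and the interferon response, namely *H2-K1*, *H2-D1*, *B2m*, *Tap1*, *Tapbp*, *Ifitm1*, *Ifitm2*, *Ifitm3* and *Irf1*. They were chosen by gene symbol from the count tables of mouse embryonic stem cells (mESCs) and of cardiac precursor cell cultures (CPCCs), which together list 16279 genes, and all 9 are listed in both tables and were tested. The mESCs were male F1 clones, each grown from a single cell, with a C57BL/6J mother and a CAST/EiJ father, and they were kept without feeder cells on gelatin in 2i medium with LIF and serum. The CPCCs were made from the same 3 clones through embryoid bodies and ascorbic acid, then passaged on gelatin with EGF and Fgf2, and they are mixed cultures rather than a sorted cell type. Both groups thus carried the same pair of parental genomes, and no engineered allele is named for either. PolyA RNA was sequenced as 3 libraries per cell type, S01, S02 and S03 from mESCs and S04, S05 and S06 from CPCCs, and the columns do not say which CPCC library came from which clone. Where 3 values are given for a cell type below, they stand in that order of libraries.

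A major histocompatibility complex class I molecule is a heavy chain, such as the products of *H2-K1* and *H2-D1*, held together with the light chain beta-2 microglobulin and a short peptide. Peptides cut by the proteasome are pumped into the endoplasmic reticulum by the Tap1 and Tap2 transporter and handed over by tapasin, the product of *Tapbp*. Interferons act through receptors and Jak and Stat proteins on many of these genes, the transcription factor Irf1 among their mediators, and the Ifitm proteins are membrane proteins that hinder the entry of viruses. Pluripotent cells are known for little class I at the surface and a weak response to interferon.

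The 4 genes *Tapbp*, *H2-K1*, *Tap1* and *H2-D1* lie within 1348 kb of chromosome 17, in the major histocompatibility complex. *Ifitm1*, *Ifitm2* and *Ifitm3* lie within 55.9 kb of chromosome 7, *B2m* is on chromosome 2 and *Irf1* on chromosome 11. The windows below run from 220 bases before to 30 bases from the start of the gene in RefSeq on GRCm38.p6, 5′ to 3′ on the strand of the gene, and are shown for the pair of class I heavy chains, for the light chain and the transporter, and for the Ifitm genes with the largest and the smallest change. They are chr17:34000318-34000567 on the minus strand for *H2-K1*, chr17:35262874-35263123 on the plus strand for *H2-D1*, chr2:122147467-122147716 on the plus strand for *B2m*, chr17:34187336-34187585 on the plus strand for *Tap1*, chr7:140967856-140968105 on the plus strand for *Ifitm1* and chr7:141010715-141010964 on the minus strand for *Ifitm3*. Capitals mark matches, on either strand, to the core of the interferon-stimulated response element (GAAANNGAA), the gamma-activated sequence (TTCNNNGAA), a kappa B site (GGGATTCCC) and the core of the cAMP response element (TGACG).
H2-K1: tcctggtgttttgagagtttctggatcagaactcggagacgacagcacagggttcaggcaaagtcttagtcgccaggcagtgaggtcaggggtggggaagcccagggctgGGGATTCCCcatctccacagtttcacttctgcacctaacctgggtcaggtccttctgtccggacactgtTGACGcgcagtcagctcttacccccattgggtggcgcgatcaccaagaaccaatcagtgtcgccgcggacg
H2-D1: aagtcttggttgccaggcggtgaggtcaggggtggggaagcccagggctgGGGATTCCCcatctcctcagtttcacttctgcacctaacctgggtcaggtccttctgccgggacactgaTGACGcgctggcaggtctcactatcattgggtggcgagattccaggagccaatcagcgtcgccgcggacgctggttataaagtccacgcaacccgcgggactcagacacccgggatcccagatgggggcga
B2m: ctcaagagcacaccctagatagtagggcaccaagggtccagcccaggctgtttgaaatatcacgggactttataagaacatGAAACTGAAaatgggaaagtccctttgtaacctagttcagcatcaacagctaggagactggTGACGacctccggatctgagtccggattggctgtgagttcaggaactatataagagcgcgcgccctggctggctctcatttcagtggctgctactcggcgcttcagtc
Tap1: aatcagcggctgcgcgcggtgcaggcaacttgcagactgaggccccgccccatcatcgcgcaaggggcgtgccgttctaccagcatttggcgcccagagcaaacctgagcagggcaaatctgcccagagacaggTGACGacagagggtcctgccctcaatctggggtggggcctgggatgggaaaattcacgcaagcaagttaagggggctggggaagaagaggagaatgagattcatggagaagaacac
Ifitm1: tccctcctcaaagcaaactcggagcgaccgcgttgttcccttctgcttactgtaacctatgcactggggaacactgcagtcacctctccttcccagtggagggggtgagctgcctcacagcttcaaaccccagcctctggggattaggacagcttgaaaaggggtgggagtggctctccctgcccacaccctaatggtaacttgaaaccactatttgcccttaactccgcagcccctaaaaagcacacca
Ifitm3: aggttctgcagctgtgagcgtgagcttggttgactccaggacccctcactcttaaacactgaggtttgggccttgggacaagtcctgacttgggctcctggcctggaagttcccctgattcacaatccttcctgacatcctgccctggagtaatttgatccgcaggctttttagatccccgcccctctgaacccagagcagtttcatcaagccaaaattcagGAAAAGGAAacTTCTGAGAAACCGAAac

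With the first base of the gene as position 1, the kappa B letters began at -110 in *H2-K1* and at -170 in *H2-D1*, and were present in 0.353% of 32851 RefSeq promoter windows of 300 bases. *Irf1* held them too, on the opposite strand, at -12. TGACG, present in 20.8% of windows, was found in *H2-K1*, *H2-D1*, *B2m* and *Tap1*, and in *B2m* again on the opposite strand at position 45, past the end of the window shown. The letters of the interferon-stimulated response element were in 8.56% of windows, among them *B2m* at -139, *Ifitm2* at -46 and *Ifitm3* at 3 and 20. Those of the gamma-activated sequence were in 8.30%, among them *Irf1* and *Ifitm3*, where the match at 14 overlaps the second response element. *Tapbp* and *Ifitm1* had none of the 4 in these windows, and the RefSeq start used for *Ifitm1* is 647 bases from the start of the gene in the deposited tables. A match of letters is not a measured site, and other forms of these elements were not searched, so a window without capitals may still hold them.

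The libraries held 6442639 to 6907330 counts in mESCs and 8468819 to 11436062 in CPCCs. In them 3 counts equal 0.298 to 0.463 CPM, the count scaled to a library of 1000000. A bound is the mean CPM in the cell type that lists a gene over that of 3 counts in the other. It makes no allowance for counting error or spread. Of all 16279 genes, 2518 are listed for CPCCs only and 760 for mESCs only. The 7 mESC markers summed to 2955 to 3719 CPM in mESCs and to 145 to 294 CPM in CPCCs, and all 7 fell. Of 8 cardiac markers, 4 are listed for CPCCs only, 1 for mESCs only and 1 of 3 tested rose, and the list summed to at most 4.68 CPM in mESCs and to 156, 44.9 and 60.4 CPM in CPCCs. Mesenchymal and fibroblast markers went from at most 137 CPM to 8414 to 12327 CPM, with 4 of 5 tested higher and 5 listed for CPCCs only. Of 8 endothelial markers, 3 (*Cdh5*, *Kdr* and *Emcn*) are listed for CPCCs only, while 3 of 4 tested were lower. The sum of this list went from 145 to 166 CPM down to 27.9 to 39.4 CPM. *Pecam1*, with a mean of 91.1 CPM, was the largest part of it in mESCs. Of 10 immune cell markers, 5 (*Ptprc*, *Adgre1*, *Csf1r*, *Lyz2* and *Itgam*) are listed for CPCCs only and 1 for mESCs only, and the list summed to 13.02 to 19.1 CPM in mESCs against 262, 79.3 and 36.7 CPM in CPCCs. *Ptprc*, the pan-leukocyte marker CD45, had 157 counts in S04, 23 in S05 and 3 in S06. S04 was thus the CPCC library with the most immune and the most cardiac marker RNA, and several results below are given without it as well.

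**Figure D1:**
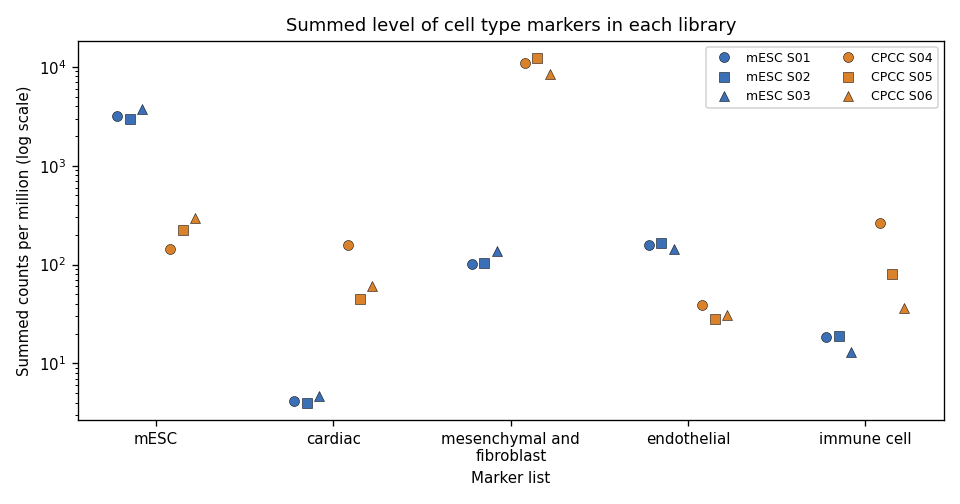
Summed CPM (log scale) of each marker list in each library, with mESC libraries in blue and CPCC libraries in orange, and 1 point per library. The immune cell markers run from 262 CPM in S04 down to 36.7 CPM in S06, and the mESC libraries sit between 13.02 and 19.1 CPM.

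CPM values below are normalized by edgeR's trimmed mean of M values (TMM). The cell types were compared with edgeR (quasi-likelihood test, p-values adjusted over 12471 genes by Benjamini-Hochberg). At an adjusted p under 0.05, 61.4% of these genes were called, 31.7% higher and 29.7% lower in CPCCs, and of the 9 genes 4 were called higher (*B2m*, *Tap1*, *H2-D1* and *Tapbp*), 3 lower (*Ifitm1*, *Ifitm2* and *Ifitm3*) and 2 in neither direction (*H2-K1* and *Irf1*). A change of at least 4 on the log2 scale, seen in 5.22% of all genes tested (3.83% higher and 1.39% lower), was reached by *B2m* and *Tap1* upward and by *Ifitm1* downward. The 3 libraries of one cell type lay wholly above the 3 of the other in 5 of the 9 genes in the direction of CPCCs and in 3 in the direction of mESCs, against 35.3% and 34.5% of all genes tested, 69.7% in all. In bulk cultures, a change in the number of cells of one type cannot be told apart from a change in RNA per cell.

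**Figure D2:**
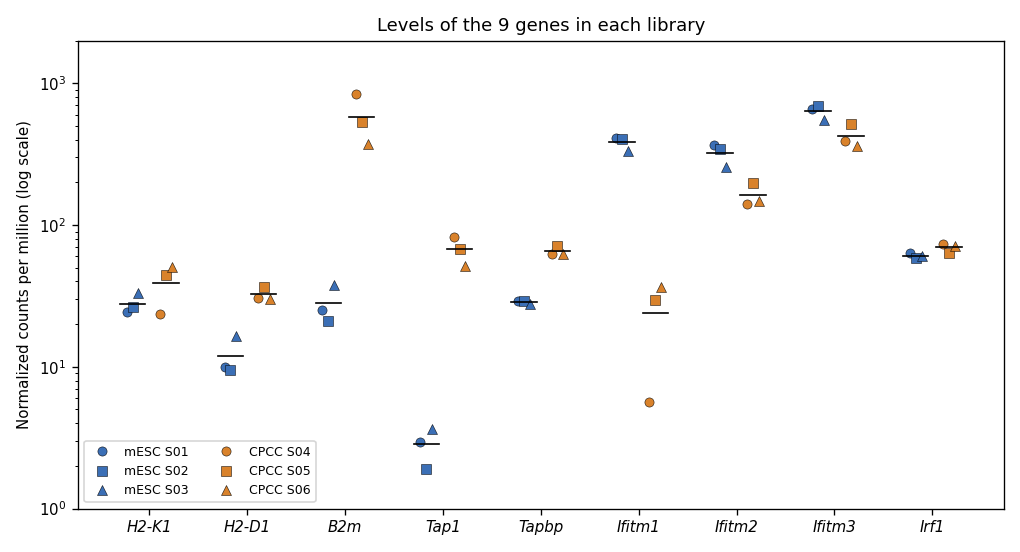
Normalized CPM (log scale) of the 9 genes in each library, with mESC libraries in blue, CPCC libraries in orange and a bar at the mean of each group. *B2m* and *Tap1* are separated by more than 20-fold in mean between the cell types, *Ifitm1* is far lower in CPCCs with S04 lowest, and *H2-K1* overlaps.

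*B2m*, the light chain that every classical class I molecule needs, showed the widest gap in CPM of the class I genes. It stood at 25.3, 21.2 and 38.0 CPM in mESCs and at 846, 529 and 373 CPM in CPCCs. Every CPCC library exceeded every mESC library, and S04 was the highest. Its mean rose from 28.2 ± 8.78 to 583 ± 241 CPM (SD, n = 3 each), a 20.7-fold increase with a log2 fold change of 4.37 (SE 0.36, edgeR adjusted p = 1.55e-05). The immune marker sum follows the same order over S04, S05 and S06 as *B2m*, and its part in the result was not tested. The same holds for other genes below, among them *Tap1*, *Ifngr1*, *Ifngr2*, *Il10rb*, *H2-DMa*, *Irgm1*, *Gbp2* and *Gbp7*. *H2-D1* and *H2-K1* did not have that order. Without S04, the log2 fold change of *B2m* was 4.01 (edgeR adjusted p = 4.55e-08). No stretch of 50 bases of the *B2m* transcript occurs in a transcript of another gene.

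*Tap1*, which forms the peptide transporter with *Tap2*, was close to the detection limit in mESCs and well measured in CPCCs. The mESC libraries had 19, 13 and 25 counts of it, or 2.94, 1.91 and 3.66 CPM. The CPCC libraries held 833, 559 and 449 counts, or 82.8, 67.8 and 51.5 CPM. The groups did not overlap, and the spread among CPCC libraries was small beside the gap. Its mean rose 23.8-fold, from 2.83 ± 0.876 to 67.3 ± 15.7 CPM (SD, n = 3 each), with a log2 fold change of 4.56 (SE 0.31, edgeR adjusted p = 6.28e-06). Without S04 it was 4.40 (edgeR adjusted p = 1.16e-07). In GENCODE an exon of *Psmb9*, a catalytic subunit of the immunoproteasome encoded next to *Tap1* on the other strand, overlaps the *Tap1* transcript and shares most of the 6.47% of its 50-base windows found elsewhere. The deposited positions of both genes do not overlap, and *Psmb9* itself had at most 1.70 CPM in any library.

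*Tapbp* encodes tapasin, the chaperone that holds the empty class I molecule at the transporter. It stood at 29.2, 29.3 and 27.9 CPM in mESCs and at 62.6, 70.6 and 62.6 CPM in CPCCs. These were the tightest replicates of the class I genes, and the groups did not overlap. It rose 2.27-fold, with a log2 fold change of 1.18 (SE 0.17, edgeR adjusted p = 0.000349). Of its 50-base windows 21.0% occur in other transcripts, mostly of *Gm19412* on the opposite strand, and the libraries do not mark strand.

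*H2-D1* and *H2-K1* encode the classical class I heavy chains of the C57BL/6 mouse, and with all libraries only *H2-D1* was called. *H2-D1* stood at 10.04, 9.41 and 16.4 CPM in mESCs and at 30.5, 36.6 and 30.03 CPM in CPCCs, with no overlap. It rose 2.71-fold, with a log2 fold change of 1.44 (SE 0.27, edgeR adjusted p = 0.00166). *H2-K1* stood at 24.3, 26.5 and 32.9 CPM in mESCs and at 23.5, 44.1 and 50.3 CPM in CPCCs. S04 lay below all 3 mESC libraries, and S05 and S06 above all of them. The log2 fold change of *H2-K1* was 0.49 (SE 0.30) and did not pass the test (edgeR adjusted p = 0.174). This call depended on 1 library, since without S04 the log2 fold change of *H2-K1* was 0.77 (edgeR adjusted p = 0.00602), and over all alternatives its adjusted p ranged from 0.00602 to 0.460. S04, the lowest CPCC library for *H2-K1*, was the highest for *B2m* and *Tap1*.

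Within each library, *H2-D1* made up 29.3%, 26.2% and 33.2% of the summed counts of *H2-K1* and *H2-D1* in mESCs, and 56.5%, 45.3% and 37.4% in CPCCs. All CPCC shares were above all mESC shares, and they spread more widely. The mean share was 29.6 ± 3.51% in mESCs and 46.4 ± 9.63% in CPCCs (SD, n = 3 each), a difference of 16.8 percentage points (two-sided exact permutation test, p = 0.10, the smallest that 3 against 3 allows). Leaving out S04 gave a difference of 11.8 points. For each count of *H2-K1* plus *H2-D1*, without correction for length, the mESC libraries had 0.739, 0.590 and 0.772 counts of *B2m* and the CPCC libraries 15.7, 6.55 and 4.64. In counts, the light chain transcript thus went from fewer to several times more than the 2 heavy chains together, most in S04. In CPM per kilobase of transcript, *B2m* was above each heavy chain in mESCs already, at a mean of 32.8 against 17.2 for *H2-K1* and 5.68 for *H2-D1*.

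The counts of the heavy chains carry a mapping limit that those of *B2m* do not. The coding sequences of *H2-K1* and *H2-D1* are identical at 91.5% of 1077 aligned bases, and 8.79% of the 50-base windows of the *H2-K1* transcript and 14.3% of those of *H2-D1* occur in transcripts of other genes, *H2-Q1*, *H2-T23*, *H2-Q6* and *H2-Q7* among them. The deposited value was not a whole number in 5 of 6 libraries for *H2-K1* and in 2 of 6 for *H2-D1*, so some reads were shared out between genes. Such values were 17.9% to 21.5% of those in each library over all genes. Among the 9 genes, *Ifitm1* and *Irf1* had 3 of 6, *Ifitm3* 2 of 6 and *Tap1* 1 of 6. Of the genes named above as sharing windows, *H2-Q1* and *H2-T23* had at most 3.88 CPM in any library. The cells also carry a CAST/EiJ copy of each gene, while the genome build named for the series, mm10, is C57BL/6J sequence. How many CAST/EiJ reads of these polymorphic genes were lost or placed elsewhere was not measured, and a difference in level between *H2-K1* and *H2-D1* within a cell type cannot be told apart from it.

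*Ifitm1*, one of the small membrane proteins that restrict viral entry, was the member with the largest fall. It stood at 414, 406 and 330 CPM in mESCs and at 5.67, 29.6 and 36.7 CPM in CPCCs. The groups were far apart, and S04 was more than 5-fold below both other CPCC libraries. The mean fell from 383 ± 46.2 CPM to 23.98 ± 16.2 CPM (SD, n = 3 each), which is 16.0-fold lower, with a log2 fold change of -4.00 (SE 0.56, edgeR adjusted p = 0.000289). Without S04 it was -3.52 (edgeR adjusted p = 1.93e-08). In the same libraries the mESC marker sum was also lowest in S04, at 145 CPM against 225 in S05 and 294 in S06, and its part in the result was not tested.

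*Ifitm2* and *Ifitm3*, the neighbours of *Ifitm1* and the closest members of its family, fell far less. *Ifitm2* stood at 367, 344 and 257 CPM in mESCs and at 141, 197 and 148 CPM in CPCCs. It was 1.99-fold lower in CPCCs, with a log2 fold change of -0.99 (SE 0.20, edgeR adjusted p = 0.00239), and the groups did not overlap. *Ifitm3*, the family member best known for blocking influenza virus, stood at 660, 696 and 552 CPM in mESCs and at 394, 512 and 360 CPM in CPCCs. It was 1.51-fold lower, with a log2 fold change of -0.59 (SE 0.18, edgeR adjusted p = 0.0180), again without overlap. This call was lost without S01 (edgeR adjusted p = 0.0701), without S02 (0.0806) or without S06 (0.0537), while the direction stayed.

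The mix of the 3 Ifitm transcripts differed accordingly. *Ifitm1* gave 28.7%, 28.1% and 29.0% of their summed counts in mESCs and 1.05%, 4.003% and 6.73% in CPCCs, a mean difference of -24.7 percentage points. The share of *Ifitm3* went the other way, from 45.8%, 48.2% and 48.4% to 72.8%, 69.3% and 66.1%, a difference of 21.9 points. *Ifitm2* kept about the same part, with 22.6% to 25.5% in mESCs and 26.1% to 27.2% in CPCCs, a difference of 2.72 points. For none of the 3 shares did the groups overlap, and each two-sided exact permutation test gave p = 0.10, the smallest this design allows, also after Benjamini-Hochberg adjustment over the 4 shares tested. Their coding sequences are 79.4% to 81.6% identical, and 6.36% of the 50-base windows of *Ifitm1*, 48.5% of those of *Ifitm2* and 10.02% of those of *Ifitm3* occur in other transcripts. For *Ifitm2* most of these lie in *Gm45717*, which overlaps it on the same strand, so its level is the least certain of the 3.

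**Figure D3:**
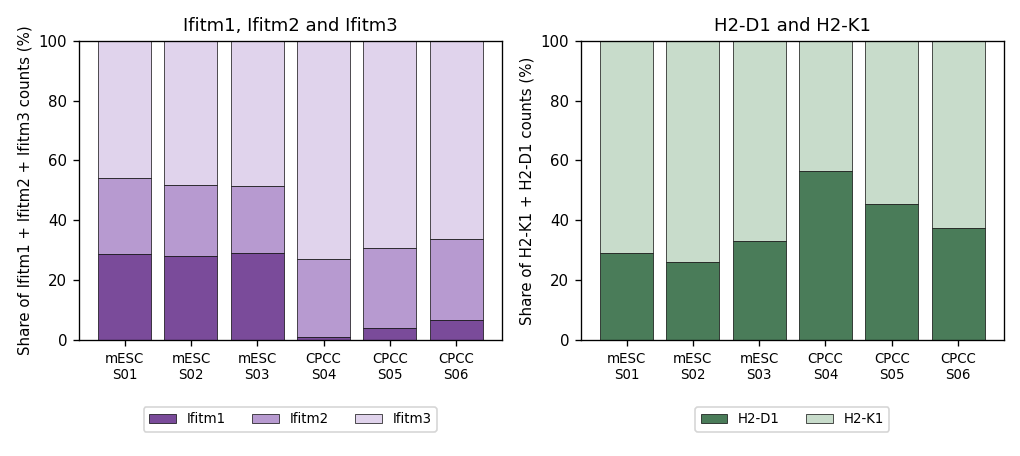
Left, the percentage of the summed *Ifitm1*, *Ifitm2* and *Ifitm3* counts that each gene gave in each library, and right, the same for *H2-D1* and *H2-K1*, with 1 bar per library. *Ifitm1* drops from 28.1% to 29.0% in mESCs to 1.05% to 6.73% in CPCCs, and *H2-D1* goes from at most 33.2% to at least 37.4%.

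*Irf1*, the transcription factor that induces class I and peptide-processing genes under interferon gamma, was nearly level. It stood at 63.0, 58.2 and 60.3 CPM in mESCs and at 73.6, 63.5 and 71.3 CPM in CPCCs. The lowest CPCC library lay just above the highest mESC library. The log2 fold change was 0.20 (SE 0.16) and did not pass the test (edgeR adjusted p = 0.307), nor under any alternative (edgeR or DESeq2 adjusted p = 0.173 to 0.492). Of its 50-base windows 2.49% occur elsewhere, all in *Gm17334* on the opposite strand.

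Levels can be compared between genes only per length, here as CPM per kilobase of the longest protein-coding CCDS transcript in GENCODE. In mESCs the order of the 9 levels per length was *Ifitm3* (938 ± 111, SD, n = 3), *Ifitm2* (493 ± 88.6), *Ifitm1* (435 ± 52.4), *B2m* (32.8 ± 10.2), *Irf1* (28.3 ± 1.12), *H2-K1* (17.2 ± 2.78), *Tapbp* (9.94 ± 0.259), *H2-D1* (5.68 ± 1.83) and *Tap1* (0.960 ± 0.297). Libraries of neighbours in that order overlapped for *Ifitm2* with *Ifitm1* and for *B2m* with *Irf1*, and for no other pair. In CPCCs the order was *B2m* (678 ± 280), *Ifitm3* (623 ± 118), *Ifitm2* (248 ± 46.7), *Irf1* (32.5 ± 2.46), *Ifitm1* (27.2 ± 18.4), *H2-K1* (24.3 ± 8.69), *Tap1* (22.8 ± 5.31), *Tapbp* (22.5 ± 1.59) and *H2-D1* (15.4 ± 1.75). *B2m* and *Ifitm3* overlapped there, as did each neighbouring pair from *Irf1* to *Tapbp*. The class I genes other than *B2m* thus lay within a narrow band of level per length in CPCCs, from 15.4 to 24.3, where in mESCs they ran from 0.960 to 17.2. These levels carry the window and strand limits given above for each gene.

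**Figure D4:**
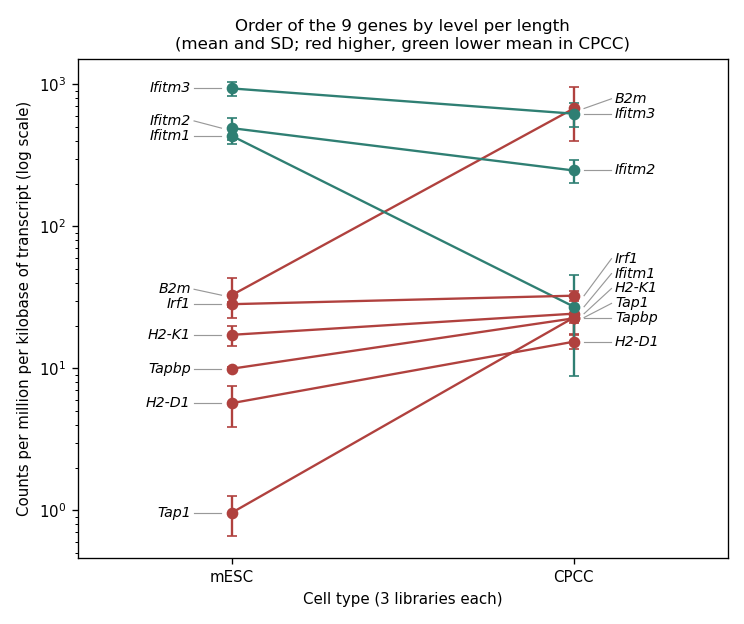
Mean level of the 9 genes in CPM per kilobase of transcript (log scale) in mESCs and CPCCs, with the SD over 3 libraries as error bars and a line joining the means of each gene. *B2m* and *Tap1* climb steeply, from 32.8 to 678 and from 0.960 to 22.8, and *Ifitm1* drops from 435 to 27.2.

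Of 18 genes of class I peptide supply and loading, *B2m*, *Tap1* and *Tapbp* included, 14 were tested, of which 9 rose (64.3%, beside 31.7% of all genes tested), none fell (beside 29.7%) and 5 did not pass. The median log2 fold change was 1.21, against 0.03 over all genes tested. At an unadjusted p under 0.05 there was 1 gene lower, and leaving out S04 or S05 gave 1 lower call each. *Erap1*, the aminopeptidase that trims peptides in the endoplasmic reticulum, stood at 0, 2.80 and 3.803 CPM in mESCs and at 37.9, 37.5 and 26.1 CPM in CPCCs. Its log2 fold change was 3.92 (SE 0.70, edgeR adjusted p = 0.00115), and 4.56 without S03. *Psmb8*, an immunoproteasome subunit, is listed for CPCCs only, at 10.6, 9.095 and 6.19 CPM, at least 19.3-fold higher than 3 counts per mESC library. *Tap2*, the partner of *Tap1*, is also listed for CPCCs only, at 3.48, 2.91 and 1.15 CPM, at least 5.61-fold higher.

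Of 22 heavy chains and relatives, 10 were tested, of which 4 rose, 3 fell and 3 did not pass. The shares, 40% and 30%, lie near the 31.7% and 29.7% of all genes tested, and the median log2 fold change was 0.91. Besides *H2-D1*, those that rose were the nonclassical heavy chains *H2-M3* (log2 fold change 2.27, SE 0.65), *H2-T24* (1.52, SE 0.43) and *H2-T22* (1.49, SE 0.44), all with edgeR adjusted p between 0.0124 and 0.0163. Without S01 none of these 3 passed (edgeR adjusted p = 0.0505 to 0.0608), which left *H2-D1* as the 1 higher call, and without S02 there were 2, with *H2-M3* (0.0502) and *H2-T22* (0.0521) lost, while *H2-T22* was also lost without S05 (edgeR adjusted p = 0.0925). The log2 fold change of *H2-M3* was 3.06 without S03, and that of *H2-T24* was 2.14 without S02. *H2-Bl* fell from 7.26, 7.65 and 5.56 CPM in mESCs to 0, 0.970 and 0.344 CPM in CPCCs, with a log2 fold change of -3.97 (SE 0.84, edgeR adjusted p = 0.00301) that was -5.25 without S05 and -3.34 without S04. *Fcgrt*, the neonatal Fc receptor, which also pairs with beta-2 microglobulin, fell by 1.59 on the log2 scale (SE 0.39, edgeR adjusted p = 0.00619). *H2-M5* and *H2-T3*, listed for mESCs only, were at least 33.3-fold and 24.04-fold lower in CPCCs. Many of these genes share sequence, and their levels carry the same mapping limit as *H2-K1* and *H2-D1*.

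Of 15 class II presentation genes, 6 were tested, 4 are listed for CPCCs only (*Cd74*, *H2-Aa*, *H2-DMb1* and *Ctss*) and 1 for mESCs only. Of the 6, 1 rose (16.7%, beside 31.7% of all genes tested), none fell (none at an unadjusted p under 0.05) and 5 did not pass, and without S06 there was 1 lower call. The median log2 fold change was -0.36. *H2-DMa*, a chaperone of class II peptide loading, rose from 4.17, 3.97 and 4.53 CPM to 25.5, 15.04 and 11.7 CPM in CPCCs (log2 fold change 2.04, SE 0.37, edgeR adjusted p = 0.00124). *Ctss*, the lysosomal protease cathepsin S of antigen-presenting cells, is listed for CPCCs only, with 38.9, 7.16 and 3.78 CPM in CPCCs, at least 37.1-fold higher, and at least 12.2-fold without S04. S04 held most of it, as it did of the immune markers, whose part in the result was not tested. *Ciita*, the class II transactivator, is the gene listed for mESCs only, at 0.8775 to 1.62 CPM, at least 3.71-fold lower in CPCCs.

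Of 16 interferon receptors and signalling genes, 15 were tested, of which 8 rose (53.3%, beside 31.7% of all genes tested), 4 fell (26.7%, beside 29.7%) and 3 did not pass. Their median log2 fold change was 0.80, and the difference from all genes was not tested. Both chains of the interferon gamma receptor rose. *Ifngr1* went from 1.70, 4.12 and 5.70 CPM in mESCs to 56.0, 47.2 and 39.0 CPM in CPCCs, with a log2 fold change of 3.61 (SE 0.39, edgeR adjusted p = 6.58e-05). *Ifngr2* went from 23.8, 22.2 and 19.2 CPM to 405, 293 and 229 CPM, with a log2 fold change of 3.83 (SE 0.25, edgeR adjusted p = 4.97e-06). The lambda interferon receptor moved apart in its 2 chains. *Il10rb*, its shared chain, rose from at most 0.731 CPM to 40.9, 24.7 and 10.8 CPM (log2 fold change 5.503, SE 0.61, edgeR adjusted p = 8.01e-05). *Ifnlr1*, its specific chain, fell from 6.80, 11.3 and 7.17 CPM to 0.0994, 0.485 and 1.49 CPM (log2 fold change -3.60, SE 0.74, edgeR adjusted p = 0.00251, and -4.83 without S06). *Socs3*, a feedback inhibitor of Jak and Stat signalling, fell by 1.12 on the log2 scale (edgeR adjusted p = 0.0227), a call lost without S02 (0.0656) or S03 (0.0618). *Usp18*, a negative regulator of the type I receptor, is listed for CPCCs only, at 0.364 to 1.38 CPM, at least 1.74-fold higher and at least 1.07-fold without S06.

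Of 12 interferon regulatory factors and partners, 9 were tested, of which 2 rose, 1 fell and 6 did not pass, *Irf1* among them. The shares of these 9 genes were 22.2% and 11.1% beside 31.7% and 29.7% of all genes tested, and the median log2 fold change was 0.12. The 2 that rose are cofactors, *Irf2bp2* (log2 fold change 1.14, SE 0.25, edgeR adjusted p = 0.00345) and *Irf2bpl* (1.05, SE 0.18, edgeR adjusted p = 0.00100). *Irf9*, the DNA-binding part of the complex that acts downstream of the type I interferon receptor, fell from 29.5, 28.4 and 36.0 CPM in mESCs to 16.2, 15.4 and 10.9 CPM in CPCCs (log2 fold change -1.14, SE 0.24, edgeR adjusted p = 0.00306). *Irf2*, which competes with Irf1 for its sites, is listed for CPCCs only, at 9.34, 3.40 and 5.96 CPM, at least 13.9-fold higher. *Irf4* is listed there too, at 0, 0.485 and 1.26 CPM, a level near that of 3 counts.

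The interferon-stimulated effectors rose and fell in shares close to those of all genes tested. Of 52 genes, *Ifitm1*, *Ifitm2* and *Ifitm3* included, 28 were tested, of which 9 rose, 8 fell and 11 did not pass, shares of 32.1% and 28.6% beside 31.7% and 29.7% of all genes tested. The median log2 fold change was 0.38. A further 13 are listed for CPCCs only and 4 for mESCs only, beside 2518 and 760 of all 16279 genes. *Irgm1*, an interferon-induced GTPase, rose from 1.24, 0.294 and 3.22 CPM to 85.4, 61.2 and 46.8 CPM in CPCCs (log2 fold change 5.33, SE 0.56, edgeR adjusted p = 5.91e-05, and 6.39 without S03). *Lgals3bp*, a secreted glycoprotein that binds galectin, rose by 3.95 on the log2 scale (SE 0.37, edgeR adjusted p = 2.97e-05), and *Isg20*, an exonuclease, by 2.73 (SE 0.56, edgeR adjusted p = 0.00250, and 3.36 without S03). *Gbp2* and *Gbp7*, guanylate-binding proteins, are listed for CPCCs only. *Gbp2* stood at 57.4, 43.9 and 30.5 CPM in CPCCs, at least 98.1-fold higher, and *Gbp7* at 20.1, 14.6 and 9.28 CPM, at least 32.7-fold higher. Against these, *Oas1a*, a sensor that activates RNase L, fell from 56.4, 57.4 and 48.6 CPM in mESCs to 0.994, 0.970 and 1.83 CPM, which is 42.7-fold lower (log2 fold change -5.40, SE 0.31, edgeR adjusted p = 2.86e-06). With *Ifitm1* it was one of the 2 largest falls among the effectors tested.

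Of the Ifitm family outside the 9 genes, 4 were looked up. *Ifitm5* fell by 2.20 on the log2 scale (SE 0.74, edgeR adjusted p = 0.0284), from 2.78, 4.71 and 2.93 CPM to 0.398, 0.243 and 1.60 CPM, and the call was lost without any one of S01, S02, S03, S04 or S05 (edgeR adjusted p = 0.0523 to 0.104), while without S06 the log2 fold change was -3.35. *Ifitm10*, by contrast, is listed for CPCCs only, at 17.8, 9.22 and 5.27 CPM, at least 24.03-fold higher.

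Of 21 nucleic acid sensors, adaptors and interferon genes, 10 were tested, of which 5 rose, 2 fell and 3 did not pass, shares of 50% and 20% beside 31.7% and 29.7% of all genes tested, with a median log2 fold change of 1.12. The 6 interferon genes looked up (*Ifnb1*, *Ifng*, *Ifne*, *Ifnk*, *Ifnl2* and *Ifnl3*) have no counts listed for either cell type. *Ticam1* and *Myd88*, adaptors of Toll-like receptors, rose by 2.14 (SE 0.33, edgeR adjusted p = 0.000548) and 2.08 (SE 0.34, edgeR adjusted p = 0.000721) on the log2 scale. *Ikbke*, a kinase of the same pathway, stood at 0.927, 1.18 and 0 CPM in mESCs and at 4.18, 4.37 and 4.01 CPM in CPCCs (log2 fold change 2.55, SE 0.81, edgeR adjusted p = 0.0213), a call lost without S01 (0.0521) or S05 (0.0569), with a log2 fold change of 3.16 without S02. *Mavs*, the mitochondrial adaptor of RNA sensors, fell from 408, 411 and 349 CPM to 99.4, 122 and 118 CPM (log2 fold change -1.78, SE 0.16, edgeR adjusted p = 2.70e-05). *Mb21d1*, the DNA sensor cGAS, fell by 1.65 on the log2 scale (SE 0.43, edgeR adjusted p = 0.00831). *Tlr3*, a receptor for double-stranded RNA, is listed for CPCCs only, at 5.87, 5.82 and 4.36 CPM, at least 11.9-fold higher. *Tlr7*, a receptor for single-stranded RNA found mainly in immune cells, is also listed there only, at 10.6, 1.21 and 1.15 CPM in CPCCs, at least 9.67-fold higher, and at least 2.63-fold without S04. S04 stood out here as for *Ctss* and the immune markers, and their part in the result was not tested.

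**Figure D5:**
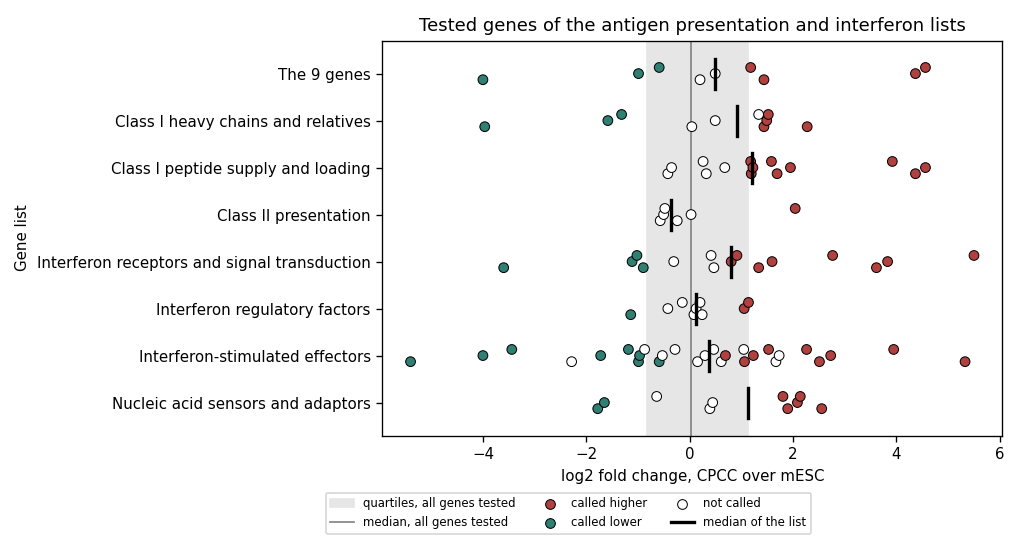
Log2 fold change, CPCC over mESC, of each tested gene in the lists of antigen presentation and interferon genes, with 1 point per gene, coloured by the call at an edgeR adjusted p under 0.05, and a bar at the median of each list. The grey band spans the quartiles of all 12471 genes tested, -0.84 to 1.14, and the medians of the lists drawn, which leave out the Ifitm family outside the 9 genes with 1 gene tested, run from -0.36 for class II presentation to 1.21 for class I peptide supply and loading.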

How the data were processed

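Bulk libraries of mESCs (3) and CPCCs (3) were used. The authors prepared SMART-Seq v4 cDNA from polyA RNA and Nextera XT libraries, which do not mark strand, and deposited estimated counts per gene, without normalization and with both alleles together. The submitters' processing notes name mm10 and STAR 2.7; the counter and its strand setting are not given in the sources used here. Each deposited table lists genes with at least 10 counts over its 3 libraries, so a gene missing from a table was given a bound against 3 counts per library and no test. The labels number the replicates but the columns do not. Replicates came from separate clones per the study's methods.

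Counts were rounded. Genes in both tables (13001) were filtered by edgeR's filterByExpr (530 removed) and compared by edgeR 4.0.16 (R 4.3.3), glmQLFit and glmQLFTest with TMM, Benjamini-Hochberg over 12471 genes, threshold 0.05, as tested on simulated data. The SE is the log2 fold change over the square root of F. The study's methods name DESeq2, which was the alternative (1.42.0). Other alternatives were upper-quartile or no normalization, whole-table library sizes, other filters, genes of either table with missing values at 0 or 3 counts, and leaving out each library.

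The 9 genes and the pathway and marker lists were chosen with earlier results of these data known. Named besides the 9 genes are, per list, the 3 largest rises and 2 largest falls past the threshold without overlap of libraries and the 2 largest bounds. Windows of 50 bases were searched in GENCODE vM21 transcripts. Promoters came from RefSeq GRCm38.p6 and all 9 genes matched. Depth was 6442639 to 11436062 counts. Allele-specific, single-cell and chromatin data were not analysed here.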

Additional observations from a re-analysis of the deposited data

How the results depend on the processing

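Over 14 alternatives, none reversed the direction of any of the 9 genes. Calls changed for *H2-K1*, which passed without S04, and for *Ifitm3*, which was lost without S01, S02 or S06, and DESeq2, the other normalizations and the filters changed no call of the 9. Of genes tested, 7656 were called by edgeR, 7896 by DESeq2, and 6536 to 7895 with 1 library left out. Setting missing genes to 0 counts moved the median of all genes from 0.03 to 0.17 on the log2 scale. With genes of either table and missing values at 0 or at 3 counts alike, the lists gained calls because more of their genes entered the test: heavy chains and relatives had 5 lower, class II presentation 2 higher, interferon-stimulated effectors 18 higher, the Ifitm family outside the 9 genes 1 higher and sensors and adaptors 8 higher. At 3 counts only, peptide supply and loading had 2 lower, and the cause was not tested. Requiring 10 counts in every sample left 0 lower calls in the Ifitm family outside the 9 genes. With 1 library left out, calls ranged from 1 to 5 higher among heavy chains and relatives, from 0 to 1 lower in peptide supply and loading, from 0 to 1 lower in class II presentation and from 0 to 1 lower in the Ifitm family outside the 9 genes. Counts as deposited in place of rounded ones left all 4 shares of the H2 and Ifitm genes in the same direction, as did each library left out, where the smallest p possible is 0.20.

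No paired analysis was possible because the columns carry no replicate numbers. The depth limits *Tap1* in mESCs (13 to 25 counts), and low genes such as *H2-Bl*, *Il10rb* and *Ifnlr1* rest on few counts in one cell type. Loss of CAST/EiJ reads at the H2 genes, reads split between paralogs, the mix of cell types in CPCCs and the immune marker RNA of S04 are limits whose size was not measured here.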
